A study of Sus scrofa with 8 samples.

Results

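MicroRNAs (miRNAs) are small RNAs that guide a silencing complex to messenger RNAs, and the bases at nt 2 to 8, called the seed, do most of the pairing with a target. A single changed base in the seed can therefore give a miRNA another set of targets. Such a base can come from RNA editing, in which adenosine is read as G or cytidine as T, from a difference in the genome, or from an error in library preparation or base calling. The single-base seed variants of 13 milk miRNAs were counted here. These are the porcine miRNAs for which the study lists q-PCR primers, and their listed sequences served as the reference.

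Milk was taken from 3 Yorkshire sows, and exosomes, which are small membrane vesicles that cells release, were precipitated from it before small RNA was sequenced on an Illumina Genome Analyzer II. At 0 days after birth each sow gave its own library, named 0d-1 to 0d-3. At 3, 7, 14, 21 and 28 days equal amounts of RNA from the sows were pooled into 1 library each (3d to 28d). The study counts 0 and 3 days as colostrum and 7 to 28 days as mature milk, so each class holds 4 libraries. No sow was treated, and 0 days is the only stage with more than 1 library. The files held 14590531 to 28141425 reads per library, 36 nt long in 7d and 21d and 40 nt long in the other libraries.

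A member is an insert of 20 to 26 nt, without an uncalled base, whose first 20 nt match 1 of the 13 miRNAs except for 1 base at nt 2 to 8. Among the single-base variants of nt 1 to 20, inserts that fitted 2 miRNAs were dropped. This removed 510 counts, none of them from a seed variant. Of 273 possible seed variants 272 were seen, with 42253 counts against 4586192 counts of exact tags. The missing one was miR-27b-3p T2G. In this notation the listed base comes first, then its position counted from 1 at the 5′ end, then the base of the tag. Over nt 1 to 20, 773 of 774 possible variants were seen with 340160 counts. Rates below are counts of a variant per 10000 counts of the exact tag of the same miRNA in the same library. Wilson 95% intervals cover counting error only, because reads made by PCR are not independent molecules.

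The listed sequences to which most of the results refer are shown with the seed in capitals.
let-7a-1-5p: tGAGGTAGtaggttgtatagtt
miR-148a-3p: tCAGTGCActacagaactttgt
miR-27b-3p: tTCACAGTggctaagttctgc
miR-200c-3p: tAATACTGccgggtaatgatgga
miR-25-3p: cATTGCACttgtctcggtctga
miR-30a-5p: tGTAAACAtcctcgactggaagc
miR-30c-5p: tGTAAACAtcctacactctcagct
miR-30d-5p: tGTAAACAtccccgactggaagc
The 13 miRNAs carry 11 different seeds, since miR-30a-5p, miR-30c-5p and miR-30d-5p share one. The 273 variants make 231 different seeds, and 0 of these equals the seed of another of the 13 miRNAs. Whether a variant equals another catalogued miRNA was not analysed here.

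The variants that carry the main results are shown next as their commonest tag, with the changed base in capitals. The first 3 reached 1% of the exact tag in a library, the following 3 are A-to-G variants above their background in most or all libraries, and the last 3 follow single libraries or groups of libraries.
let-7a-1-5p T6G: tgaggGagtaggttgtatagtt
let-7a-1-5p T6C: tgaggCagtaggttgtatagtt
miR-148a-3p T5G: tcagGgcactacagaactttgt
miR-27b-3p A4G: ttcGcagtggctaagttctgc
miR-148a-3p A3G: tcGgtgcactacagaactttgt
miR-200c-3p A2G: tGatactgccgggtaatgatgga
miR-148a-3p C2T: tTagtgcactacagaactttgt
miR-148a-3p G6T: tcagtTcactacagaactttgt
miR-30a-5p A6C: tgtaaCcatcctcgactggaagc

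Seed variants were rare, and their level differed between libraries. Among the single sows, 0d-1 had 298 per 10000 (Wilson 95% bounds 291 and 304), 0d-2 had 193 (189 to 198) and 0d-3 had 62.4 (61.5 to 63.3). Among the pools, the rate was 57.8 in 3d (53.4 to 62.6), 106 in 7d (99.6 to 112), 91.1 in 14d (86.7 to 95.6), 62.4 in 21d (59.2 to 65.8) and 95.9 in 28d (92.6 to 99.3). The libraries of the first and second sow stood above all others, whereas that of the third sow lay with the lowest. The mean of the 8 libraries was 120.8 ± 83.7 (SD, n = 8). The pooled rate of 92.1 per 10000 rests mainly on 0d-3, which held 65.2% of the exact counts and 44.2% of the variant counts. That library also stood apart in its makeup, with 3146 exact tags of miR-148a-3p against 73734 to 263602 in the other 7.

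Between the 13 miRNAs the median rate over libraries ran from 45.0 per 10000 for miR-375-3p to 108 for miR-148a-3p. Pooled over libraries, the rate ran from 45.3 for miR-200c-3p to 370 for let-7a-1-5p. Of the 13, 12 had their highest rate in 0d-1, from 114 for miR-375-3p to 341 for miR-30a-5p. The exception was let-7a-1-5p, a member of the family that regulates developmental timing and growth, which had 407 per 10000 in 0d-3 and 215 in 0d-1. miR-148a-3p, the most abundant of the 13 over all libraries, reached 299 in 0d-3, close to its 309 in 0d-1. For the other 11 miRNAs the rate in 0d-3 lay between 31.3 and 113. In 3d miR-200c-3p had no seed variant among 1708 exact tags, which allows a rate of up to 17.6 per 10000.

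The positions within the seed were hit unevenly, and the uneven positions differed between libraries. At nt 6 the rate was 116 per 10000 in 0d-1 and 84.2 in 0d-2, against 20.0 in 0d-3 and 8.63 to 16.8 in the 5 pooled libraries. In both 0d-1 and 0d-2, 9 of the 13 miRNAs had their highest count at nt 6. At nt 2 the rate was 47.6 in 0d-2, 31.0 in 7d and 28.5 in 0d-1, and 6.08 to 10.1 in the other libraries. At nt 4 the library 0d-1 stood alone at 40.3, with the others at 4.53 to 14.3. At nt 8 it had 68.6, followed by 31.0 in 28d and 29.1 in 0d-2. At nt 7 the 8 libraries kept closest together, at 5.63 to 12.4.

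Each base change had its own profile over the libraries. A-to-C ran from 1.46 to 35.99 per 10000 with a median of 12.1, and was the highest of the 12 changes in 3d, 14d, 21d and 28d. G-to-T was highest in 0d-1 (46.3) and 0d-2 (25.2), C-to-T in 7d (8.74) and T-to-G in 0d-3 (9.77). A-to-G, the change that adenosine editing would leave, stayed in a narrow band of 2.30 to 5.23 with a median of 2.95, and ranked 6 to 9 of the 12 changes in each library. It was below A-to-C in all libraries except 0d-3. C-to-T had a median of 3.83 and ranked from 1 in 7d to 7 in 28d. Transitions made up 18.7% of the seed variant counts in 0d-1, with bounds of 17.9% and 19.6%, and 42.7% in 0d-3 (42.0 to 43.5), with the other libraries between these values.

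The new base was also compared with its neighbours in the listed sequence. For 149 variants whose new base matched neither neighbour the median rate over libraries was 2.91 per 10000. It was 4.63 for the 51 variants whose new base equals the previous base only, 4.82 for the 54 that equal the next base only, and 7.80 for the 19 that equal both. These groups differ in their mix of base changes and positions, and no test was made.

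Reads without an insert, which begin directly with the 3′ adaptor, gave a reference of a single known sequence at the same read positions. They numbered 1975900 to 10241007 exact reads per library. Their total rate of single-base changes at nt 2 to 8 was 128 per 10000 in 0d-1, 73.8 in 0d-2, 46.6 in 7d, 42.0 in 0d-3 and 14.8 in 14d, and 8.39, 6.60 and 4.17 in 3d, 28d and 21d. The seed variant rate of the miRNAs exceeded it in every library, by 1.49 times in 0d-3 to 14.97 times in 21d. The adaptor and the seeds hold different bases, so these ratios are not matched for base change. At nt 6 the reads without insert had 31.6 in 0d-1, 26.7 in 0d-2 and 12.7 in 0d-3 and at most 0.815 in the pooled libraries. At nt 2 they had 40.3 in 0d-2, 22.9 in 0d-1 and 22.2 in 7d, the same 3 libraries in which the miRNAs were high there. At nt 4 they had 30.0 in 0d-1, but also 18.2 in 0d-3, where the miRNAs were low at 4.53.

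miR-148a-3p is the one listed miRNA with C at nt 2, a base that the adaptor shares there. Its C2T rate was 13.7 per 10000 in 0d-1, 24.96 in 0d-2 and 15.4 in 7d, and that of the reads without insert was 10.3, 19.7 and 10.2. In 3d, 14d, 21d and 28d the miRNA had 4.48, 4.59, 3.79 and 3.88, and the reads without insert 0.134, 0.379, 0.136 and 0.0536. In 0d-3 C2T rested on 3 counts. For C2T the high libraries were thus the same in both kinds of read, and the quiet libraries kept a rate near 4 in the miRNA that the adaptor did not have. C2A was nearer in the 2 kinds of read. In 3d, 14d, 21d and 28d the miRNA had 3.66, 6.13, 4.06 and 4.32, and the reads without insert 2.63, 4.77, 1.34 and 1.19. The adaptor and at least 1 miRNA share 21 changes, in 8 libraries each. The miRNAs had the higher rate in 114 of these 168 pairs. This tally depends on how many miRNA tags a pair holds. At nt 7 in 3d, 768 exact tags gave 0 counts of G-to-C, below the adaptor. They gave 1 count of G-to-T, which is 13.02 per 10000 against 0.2525 in the adaptor.

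The 3 miR-30 members have the same 11 first bases, so each seed change has the same neighbours and position in all of them. Of 21 changes, 19 had pooled rates within 2-fold among the 3 members, with a median ratio of highest to lowest of 1.38. These pooled rates rest mainly on 0d-3, which held 76.4% to 82.3% of the exact tags of the 3 miRNAs. By the median over the 8 libraries 9 of the 21 changes were within 2-fold, and for 6 changes a member had a median of 0. The exceptions in the pooled rates were C7G, at 0.577, 1.59 and 1.31 per 10000 in miR-30a-5p, miR-30c-5p and miR-30d-5p, and A4G, at 1.84, 3.98 and 2.57. A6C of miR-30a-5p had 85.9 in 0d-1, 71.9 in 0d-2, 51.0 in 14d, 29.5 in 28d and 6.36 in 3d. It had 1.58 in 0d-3, 0.456 in 21d and 0 in 7d. A6C of miR-30d-5p was high in the same 4 libraries, with 55.9 in 0d-2, 47.5 in 0d-1, 42.1 in 14d and 13.6 in 28d. A6T was more uneven still: it had 50.2 and 45.7 in 0d-1 and 0d-2 in miR-30a-5p and at most 0.972 in the other 6 libraries.

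A-to-C at nt 6 and nt 7 was low in both libraries of 36-nt reads and in 0d-3, and higher in the other libraries. Summed over the 5 miRNAs with A at nt 7, the rate was 14.9 to 33.0 per 10000 in the 5 libraries of 40-nt reads other than 0d-3. It was 0 and 1.30 in the libraries of 36-nt reads and 1.86 in 0d-3. A7C of miR-25-3p, a member of the miR-106b-25 cluster, had 69.1, 66.0, 56.7, 48.3 and 43.9 in 0d-1, 0d-2, 3d, 14d and 28d, and 2.15, 0 and 4.04 in 0d-3, 7d and 21d. At nt 8 the 36-nt libraries did not stand apart, with 9.76 and 14.4 against 11.5 to 54.1. The split was noticed in the values, and read length cannot be told apart from other differences between these runs.

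To ask which variants exceeded the general level of their kind, each was compared with the rate of the same base change in the other 12 miRNAs of the same library (edgeR quasi-likelihood test, Benjamini-Hochberg adjustment over all tested variants of nt 1 to 20). Ratios to this background are on the log2 scale, with the standard error after the ± sign. Of the 273 seed variants 265 had at least 10 expected counts and were tested. Of these 19 were above and 26 below their background, which is 7.17% and 9.81%. Over all 757 variants tested, 7.66% were above and 19% below. The share of seed variants above was thus near that of all tested variants. That reference has a limit. At nt 9 to 20, 27 of 454 tested variants were above and 118 below a background of their own positions. In 0d-3 the rate per position was 68.2 per 10000 there and 8.92 in the seed. Whether other catalogued miRNAs are among these variants was not analysed. Without 0d-2 the count of seed variants above fell to 11, all among the 19. Of the 19, 9 were at nt 6, and 6 belonged to miR-148a-3p. These counts were not set against the number of variants tested at each position or in each miRNA.

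let-7a-1-5p had 3 variants above background, all at nt 6. T6G had 2253 counts against 92048 exact tags in 0d-3, which is 245 per 10000. In 0d-1, 0d-2, 14d, 21d and 28d it had 3, 3, 1, 1 and 7 counts, or 12.9, 9.05, 6.53, 6.94 and 21.6 per 10000, and 0 counts in 3d and 7d. The 0d-3 value lay far above the rest, and the 793 and 634 exact tags of 3d and 7d allow rates of up to 37.8 and 47.3. Its log2 ratio was 3.73 ± 0.33 (adjusted p = 8.09e-09, above background in 6 of 8 libraries). Without 0d-3 the log2 ratio was 2.15 (adjusted p = 0.0101), and limma gave 1.60 (adjusted p = 0.0253). T6C had 110 per 10000 in 0d-3 and 0 to 21.5 elsewhere, with a log2 ratio of 2.39 ± 0.40 (adjusted p = 9.23e-05), but 1.12 with adjusted p = 0.199 without 0d-3. T6A had 23.7 in 0d-3 and 0 to 17.2 elsewhere, with a log2 ratio of 3.12 ± 0.41.

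miR-148a-3p showed the same library standing apart at nt 5. T5G had 60 counts against 3146 exact tags in 0d-3, or 191 per 10000. In the other libraries it had 2.38, 2.73, 1.63, 2.50, 1.26, 2.23 and 7.66 per 10000 in 0d-1, 0d-2, 3d, 7d, 14d, 21d and 28d. The log2 ratio was 2.63 ± 0.32 (adjusted p = 1.41e-06, above background in 7 of 8 libraries). T5C had 47.7 and T5A 19.1 in 0d-3, against at most 12.2 and 8.35 elsewhere. These 3 changes at nt 5 and those of let-7a-1-5p at nt 6 replace a T that follows a G.

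In 0d-3 the T-to-G sites were therefore sorted by the base before them, a grouping chosen after the values were seen. The 7 sites after G had 5.31 to 245 per 10000 with a median of 9.90. The 8 sites after T had 0 to 1.23 and the 3 after A had 0 to 1.82. The 3 after C had 1.92, 1.94 and, for miR-574-3p T6G, 31.8. T5G of miR-375-3p, a miRNA known from pancreatic islets, had 129 counts (19.8 per 10000) in 0d-3. It had 0 counts among 11613 exact tags of the other 7 libraries, which allows a rate of up to 2.58. Summed over the 7 sites, T-to-G after G had 26.5 per 10000 in 0d-3 and 1.09 to 6.02 in the other libraries. T3G of miR-30a-5p, miR-30c-5p and miR-30d-5p (7.38, 9.90 and 5.31 in 0d-3) shares its neighbours, so these sites are not separate contexts. In the reads without insert of 0d-3, T-to-G reached 8.21 at nt 4, where the T follows a G, and a higher 11.4 at nt 6, where it follows an A.

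Of 265 seed variants tested, 2 were called above background and also exceeded it in all 8 libraries, and both were A-to-G. Of all 757 variants tested, 12 did so, so this was no more common in the seed. miR-27b-3p A4G had 9.23 per 10000 in 0d-1, 37.8 in 0d-2 and 12.2 in 0d-3, and 13.02, 23.8, 12.4, 6.47 and 14.8 in 3d, 7d, 14d, 21d and 28d. The libraries other than 0d-3, which had 80 counts, gave 1 to 12 counts each, so single values are imprecise. The log2 ratio was 2.39 ± 0.41 (adjusted p = 0.00013). miR-148a-3p A3G had 6.09, 5.46, 3.18, 3.93, 9.21, 6.04, 4.33 and 5.15 per 10000 in the same order of libraries, with 1 count in 0d-3 and 29 to 144 in the others. Its log2 ratio was 1.15 ± 0.28 (adjusted p = 0.00334). A4G was highest in 0d-2 and A3G in 7d, a library whose nt 3 rate of 25.1 was the highest of all, and the values of colostrum and mature milk overlapped in both. With only tags seen more than 10 times in a library, which leaves no count of A4G outside 0d-3, its log2 ratio was -0.35 (adjusted p = 0.751). With the median background A3G had 0.79 (adjusted p = 0.0928).

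miR-200c-3p, an epithelial miRNA that targets ZEB1, had another A-to-G variant of this kind. A2G had 10.6, 8.97 and 7.19 per 10000 in 0d-1, 0d-2 and 0d-3, 0 in 3d, and 16.0, 10.7, 9.09 and 11.8 in 7d, 14d, 21d and 28d. It exceeded its background in 7 of 8 libraries (log2 ratio 1.63 ± 0.39, adjusted p = 0.0026). With only tags seen more than 10 times, which again leaves counts in 0d-3 alone, the log2 ratio was -0.66 (adjusted p = 0.625). Among C-to-T variants the highest pooled rates were those of miR-148a-3p C2T (11.7), miR-182-5p C6T (9.13) and miR-25-3p C8T (6.17). This order depends on the libraries, since 0d-3 held 0.299% of the exact tags of miR-148a-3p but 77.1% and 89.9% of those of the other two, and in 0d-1 and 0d-2 C6T was above C2T. miR-182-5p C6T, of a miRNA known from activated T cells, had 69.3 in 0d-1 and 55.1 in 0d-2 and 2.57 to 6.31 elsewhere, with a log2 ratio of 1.21 ± 0.37 (adjusted p = 0.0177). It did not pass without 0d-1 (0.68, adjusted p = 0.239), without 0d-2 (1.02, adjusted p = 0.0878) or by limma (0.58, adjusted p = 0.311). C2T and C8T did not pass (adjusted p = 0.152 and 0.854).

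The background was then taken from the same position as well as the same base change, which needs another miRNA with that base there and left 250 seed variants. Of these 14 were above and 15 below, where 7.34% of all 722 tested variants were above, and 10 of the 14 had been above in the first comparison. let-7a-1-5p T6G kept a log2 ratio of 3.18 ± 0.47, miR-148a-3p T5G 2.02 ± 0.33, miR-27b-3p A4G 2.53 ± 0.37, miR-148a-3p A3G 2.10 ± 0.30 and miR-200c-3p A2G 2.005 ± 0.42, with adjusted p of 2.06e-05, 7.11e-05, 1.47e-05, 1.25e-05 and 0.00111. Of the variants high at nt 6 in 0d-1 and 0d-2, some that had passed the first comparison did not pass here. miR-30a-5p A6T went from 1.68 ± 0.43 to -0.44 ± 0.41, miR-182-5p C6T to 0.41 ± 0.31 and miR-148a-3p G6T from 1.08 ± 0.30 to 0.81 ± 0.33. miR-148a-3p G6T had 91.7 and 55.1 per 10000 in 0d-1 and 0d-2 and 3.15 to 10.1 elsewhere. In the first comparison it did not pass without 0d-1 or without 0d-2 (adjusted p = 0.0684 and 0.0608).

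For other miRNAs the variant with the highest pooled rate did not pass the test. miR-191-5p G5C and miR-25-3p G5C had 98.6% and 98.3% of their counts in 0d-3, which also held 92.35% and 89.94% of their exact tags, at 10.5 and 9.66 per 10000 there. miR-30c-5p T3C had 13.9 in 0d-3 and 0 to 12.4 elsewhere. miR-21-5p A2C, of a miRNA with broad roles in growth and inflammation, rested on 24 counts in all. None of these 4 passed (adjusted p = 0.608, 0.815, 0.894 and 0.770), and neither did A6C of miR-30a-5p and miR-30d-5p or T5G of miR-375-3p (0.173, 0.617 and 0.801). A6C of miR-30a-5p passed in 3 of 21 alternatives. These were the 40-nt libraries (log2 ratio 1.21, adjusted p = 0.0109), the same without 0d-3 (1.37, adjusted p = 0.00063) and the median background (1.35, adjusted p = 0.0215). miR-574-3p T6C had 29.9, 24.1 and 23.7 in 0d-3, 0d-2 and 0d-1 and 0 to 2.87 in the pooled libraries, and passed narrowly (log2 ratio 1.24 ± 0.46, adjusted p = 0.0479). It passed in 10 of 21 alternatives, and not without 0d-1, 0d-2 or 0d-3 (1.08, 0.87 and 0.99, adjusted p = 0.14, 0.24 and 0.172), by limma (0.25, adjusted p = 0.708) or with the background of the same position (-0.016, adjusted p = 0.985).

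Lengths, which the choice of members did not use beyond the range of 20 to 26 nt, were compared between variant and exact tags. In the 7 libraries other than 0d-3 the commonest length was the same for all 13 miRNAs, and in 0d-3 for 12 of 13. For let-7a-1-5p T6G in 0d-3, 78.6% of the counts (95% interval 76.8 to 80.2) were 22 nt long, against 77.4% of the exact tags. miR-148a-3p T5G had 98.3% at 22 nt (91.1 to 99.7) and the exact tag 98.7%. miR-27b-3p A4G had 82.5% at 21 nt (72.7 to 89.3) and the exact tag 85.5%. miR-200c-3p A2G in the other 7 libraries had 93.1% at 23 nt (78.0 to 98.1), above the 65.8% of the exact tag, on 29 counts. In 0d-3 it had 83.2% (78.8 to 86.9) against 80.6%. Of 35 such comparisons for the named variants, the interval left out the exact share in 5, the one of miR-200c-3p A2G included. miR-30a-5p A6C had 24.8% at 24 nt (17.4 to 34.0) against 42.4% in 0d-3, and 62.1% at 23 nt (58.7 to 65.3) against 53.8% in the other libraries. miR-30d-5p A6C had 58.7% (51.1 to 65.9) against 68.4% in the other libraries, and miR-30c-5p T3C 61.7% (55.5 to 67.4) against 52.4% in 0d-3.

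Colostrum and mature milk were compared last. Summed over the seed, the 4 colostrum libraries had 152.8 ± 115 variants per 10000 (mean ± SD), and the 4 of mature milk had 88.8 ± 18.6. The groups overlapped, at 57.8 to 298 and 62.4 to 106, and the difference of 64.0 was within the spread between libraries (2-sided exact permutation p = 0.40, where the smallest possible is 0.0286). By edgeR's quasi-likelihood test 0 of 265 seed variants passed, as did 0% of all 757 variants tested, which does not show that the rates were alike. The lowest adjusted p was 0.215. An unadjusted p under 0.05 was reached by 27 of 265 seed variants, of which 25 were higher in colostrum. It was reached by 82 of all 757 variants tested, a share near that of the seed. DESeq2 called 1. The median log2 fold over seed variants was 0.94, and 0.66 over all variants tested. miR-30a-5p A6T had the lowest p values together with miR-148a-3p G6C and miR-30d-5p A6T, and each was high in 0d-1 and 0d-2. Without 0d-3, 10 of 256 tested seed variants were called, and without 0d-2 there were 6 of 264. Without 0d-1 there were 5 of 263 and without 3d 2 of 264. All these calls were higher in colostrum. They were not set against the share called among all variants tested, so whether they are particular to the seed was not tested. Of the 4 colostrum libraries 3 come from single sows, and all mature milk libraries are pools, so stage and pooling cannot be told apart.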

How the data were processed

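Per the labels and the study's methods, total RNA of ExoQuick-precipitated exosomes was size-selected at 10 to 40 nt, ligated to Illumina adaptors and sequenced. The authors combined identical reads and deposited, for each of the 8 libraries, each read with its count, before adaptor trimming and with reads seen once included. The study states 36-nt reads, whereas 6 files hold 40-nt reads. The adaptor was derived from the reads that follow full miRNA sequences and trimmed at its first 8 nt; no base qualities were used.

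The members and lists were chosen with earlier results of these data known. Expected counts are the exact count times the rate of the same base change in the other 12 miRNAs of that library. This rate was taken over nt 2 to 8 for seed variants and over nt 9 to 20 for variants at those positions. Variants with at least 10 expected counts over all libraries were tested with edgeR 4.0.16 in R 4.3.3 against these as an offset. Because edgeR's function needs more than 1 coefficient, its quasi-likelihood F statistic was computed with the offset alone as the null fit. Standard errors are the log2 value divided by the square root of F. Colostrum was compared with mature milk by edgeR with the exact count as offset, and by DESeq2 1.42.0 as an alternative. limma 3.58.1 used log2 ratios with a pseudocount of 0.5. Both fits were tested on simulated data. With the spread of these libraries, the comparison of milk classes missed most of the known differences put in, and the comparison with the background made more false calls than its nominal rate. The threshold was an adjusted p of 0.05. P-values measure the spread between these libraries, of which 5 are single pools.

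Named variants were the one with the highest pooled rate of each miRNA, up to 10 above background in all 8 libraries, the 3 highest A-to-G and C-to-T variants, up to 5 rises and falls past the threshold between milk classes (none passed) and any at 1% or more of at least 1000 exact tags. Other variants named were chosen after their values were seen. Sequences are the study's primer sequences, and no genome coordinates were used.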

Additional observations from a re-analysis of the deposited data

Results flagged for a closer look

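Within each class of 4 libraries, 66 groups of rates were screened for 1 library far from the other 3 (Dixon's criterion at 95%), which chance meets in about 1 group in 20. It was met 6 times. In mature milk 7d stood apart in 4 rates: nt 2 variants (31.0 per 10000), A-to-T (3.38), C-to-A (8.63) and C-to-T (8.74). In colostrum 0d-1 stood apart at nt 4 (40.3) and 0d-3 in T-to-G (9.77). The reads without insert also had high nt 2 rates in 7d (22.2) and high nt 4 rates in 0d-1 (30.0). Causes were not tested.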

How the results depend on the processing

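Of 19 seed variants above and 26 below background, leaving out 1 library gave 11 to 20 above and 18 to 27 below. limma gave 6 and 61. Counts below moved to 13 with the median background, 15 with that of the same position, 16 with at least 50 expected counts, 66 with only tags seen more than 10 times and 10 with the 40-nt libraries without 0d-3. Without both 0d-1 and 0d-2, 11 were above. The last 2 choices were made after seeing the data. Against 0 calls between colostrum and mature milk, DESeq2 gave 1 and RLE 3. The 40-nt libraries without 0d-3 gave 5 and leaving out 1 library gave 0 to 10, all higher in colostrum. The counts of seed variants under these choices were not set against the share called among all variants tested. Whether they are particular to the seed was not tested. The mean seed rate of 120.8 per 10000 fell to 79.2 without both 0d-1 and 0d-2 and was 95.5 to 133 otherwise. With only tags seen more than 10 times, miR-200c-3p A2G (-0.66) and miR-27b-3p A4G (-0.35) turned sign, as did miR-574-3p T6C (-0.016) with the background of the same position. let-7a-1-5p T6G and miR-148a-3p T5G passed under all 20 alternatives in which each was tested. Causes were not tested. Exact tags of let-7a-1-5p, miR-27b-3p and miR-375-3p numbered under 1000 in 3d and 7d, so rates of a few per 10000 were not detectable there. No paired analysis was possible because the RNA of the sows was pooled at each stage after 0 days.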
